A study of Mus musculus with 9 samples.

Results

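Glycolysis and hypoxia response genes were followed in mouse ear skin that had received an allergen, an irritant or their vehicle. The set holds 34 genes chosen by symbol: transporters of glucose and lactate, glycolytic enzymes and their regulators, the oxygen-sensing machinery, and targets of hypoxia-inducible factor (HIF). A gene was measured through the probe sets that the array annotation assigns to its symbol alone. Of the 34 symbols, 31 had such a probe set, and 30 of them were tested among 14122 of the 18193 genes measured in the series. Those 30 genes had 69 probe sets, of which 63 were bright enough to be tested on their own and 6 were not. The remaining 1 of the 31, Gapdh, was represented by 3 control probe sets only. Bnip3l had 3 probe sets, each shared with another gene, and neither Gpi1 nor Eno1 had a probe set in the annotation used. Genes were tested if 3 or more of the 9 arrays had a signal above that array's own 40th percentile. Of the 30 tested genes, 28 lay above it in every array, while Eno2 lay at or below it in 2 arrays and Ankrd37 in 6.

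The study compared DNFB (dinitrofluorobenzene, a contact allergen), BAC (benzalkonium chloride, a skin irritant) and a vehicle of acetone and olive oil, each on 3 arrays of ear skin RNA from C57BL/6 mice taken 6 h after application. Right ears had received a compound and left ears the vehicle; treatment and side therefore cannot be told apart. No genetic change is named in the labels, and the sources used here give neither dose, age nor sex. The labels number the arrays without saying that they came from separate animals, so the p-values reflect only the scatter among these samples, possibly technical in origin. Signals are Affymetrix MAS5 intensities, scaled in each array to a trimmed mean of 250.001. They compare a probe set between arrays but not one gene with another. The median signal lay between 71.2 and 86.3 over the 9 arrays, and arrays carry no read depth, so their number limits the precision. The epidermal markers Krt10 and Lor were bright on every array, with mean signals of 27482 and 18165 in DNFB arrays, 25260.0 and 18538 in BAC arrays and 21918 and 19909 in vehicle arrays. They do not stand for the keratinocyte markers as a list. Against vehicle, 1 of 6 keratinocyte markers was above 0 after DNFB (median log2 change -0.33) and 2 of 6 after BAC (median -0.081). The ear also held skeletal muscle, fibroblasts, vessels and leukocytes, and in whole tissue fewer cells of a type and less RNA per cell cannot be told apart.

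Cells take up glucose through facilitative transporters and split it to pyruvate in the cytosol, and when oxygen is short or demand is high they turn pyruvate to lactate and export it. HIF, a transcription factor of an oxygen-regulated alpha subunit and a stable beta subunit, raises many of the genes involved, while prolyl hydroxylases mark the alpha subunit for destruction when oxygen is present. In inflamed skin, activated keratinocytes and arriving neutrophils are both known to rely heavily on glycolysis. HIF activity depends largely on protein stability, which arrays do not measure.

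HIF binds short DNA elements with the core ACGTG or GCGTG, and promoters of 6 genes are shown here for where those letters lie. RefSeq promoter windows on GRCm38.p6, of 250 bases before to 50 bases after a start, were held for 31 of the 34 genes, in 44 windows. Slc2a3, Ndrg1 and Bnip3l were the others. The sequences run 5′ to 3′ over the 250 bases before the start, and capitals mark ACGTG or GCGTG on either strand, so CACGT and CACGC also appear in capitals. Hif1a, Slc2a1, Hk2 and Pgk1 are genes that passed the test in at least 1 comparison, and Ldha and Bnip3 are genes that carried several cores and passed in none.
Hif1a (chr12:73907617-73907866, plus strand): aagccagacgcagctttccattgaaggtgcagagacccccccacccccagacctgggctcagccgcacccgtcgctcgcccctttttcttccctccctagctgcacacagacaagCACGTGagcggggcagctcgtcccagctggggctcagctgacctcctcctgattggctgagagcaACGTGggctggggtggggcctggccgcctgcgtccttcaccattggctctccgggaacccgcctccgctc
Slc2a1 (chr4:119108495-119108744, plus strand): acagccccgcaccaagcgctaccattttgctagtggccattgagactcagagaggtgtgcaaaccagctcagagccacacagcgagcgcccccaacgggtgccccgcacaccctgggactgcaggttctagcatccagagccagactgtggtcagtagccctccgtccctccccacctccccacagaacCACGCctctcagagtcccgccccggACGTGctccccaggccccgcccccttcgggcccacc
Hk2 (chr6:82774455-82774704, minus strand): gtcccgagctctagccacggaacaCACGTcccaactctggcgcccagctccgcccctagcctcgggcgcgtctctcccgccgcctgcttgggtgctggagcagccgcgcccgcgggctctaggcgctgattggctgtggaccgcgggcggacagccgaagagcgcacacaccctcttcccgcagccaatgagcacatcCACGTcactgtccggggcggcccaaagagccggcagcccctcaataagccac
Pgk1 (chrX:106186850-106187099, plus strand): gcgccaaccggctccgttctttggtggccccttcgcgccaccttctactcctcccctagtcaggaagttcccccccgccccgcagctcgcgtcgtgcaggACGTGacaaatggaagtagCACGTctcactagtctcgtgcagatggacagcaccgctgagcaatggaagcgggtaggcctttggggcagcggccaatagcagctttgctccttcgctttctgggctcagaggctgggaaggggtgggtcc
Ldha (chr7:46845554-46845803, plus strand): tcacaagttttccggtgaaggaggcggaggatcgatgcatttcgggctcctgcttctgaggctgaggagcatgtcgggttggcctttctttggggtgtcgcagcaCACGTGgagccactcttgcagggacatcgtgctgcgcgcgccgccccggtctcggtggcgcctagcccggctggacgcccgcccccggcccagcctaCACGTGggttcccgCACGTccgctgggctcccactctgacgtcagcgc
Bnip3 (chr7:138909507-138909756, minus strand): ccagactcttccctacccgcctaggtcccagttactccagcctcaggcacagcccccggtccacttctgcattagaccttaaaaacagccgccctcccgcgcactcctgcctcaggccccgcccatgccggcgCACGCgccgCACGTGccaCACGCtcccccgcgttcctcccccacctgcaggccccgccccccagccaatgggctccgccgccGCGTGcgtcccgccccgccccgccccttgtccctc
The Ldha stretch held 5 ACGTG matches and the Bnip3 stretch 2 ACGTG and 3 GCGTG matches, counting both strands. The palindrome CACGTG, the E-box, holds ACGTG on each strand and so counts as a pair. Hif1a held 3 ACGTG matches, Hk2 and Pgk1 2 each, and Slc2a1 had 1 match of each core. Over the 300-base windows, ACGTG was found in 25 of 44 windows of the set, against 19.62% of 32851 promoter windows in the reference. GCGTG was found in 26 of 44, against 32.39% of all windows. At least 1 of the cores was found in 36 of 44 windows, against 43.77% of all windows. Counted by gene, 28 of 31 had a core in some window, for which no share by gene was computed over the reference. The E-box CACGTG was in 6 of 44 windows against 7.15% of all, the antioxidant response element TGACNNNGC in 4 against 12.39%, and the AP-1 site TGANTCA in 1 against 7.808%, all searched on both strands. Windows of a gene with several starts can overlap, so the same match can count more than once. A match is a run of letters, not a bound site. The set was chosen to hold HIF targets, so its shares of these cores say nothing about the arrays.

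After DNFB, the tested genes for glucose entry and Hk2, a hexokinase of the first trapping step, rose together with several enzymes of the pathway. Hk1, the other hexokinase of the set, did not pass. The rises were in Slc2a1, Slc2a3, Hk2, Aldoa, Pgk1, Pkm, Hif1a, Ndrg1, Higd1a and P4ha1, and Egln3, an oxygen-sensing prolyl hydroxylase, fell. That is 10 genes higher and 1 lower of 30, with limma adjusted p under 0.05 over all 14122 tested genes. Of all tested genes, 13.8% passed, 6.76% higher and 7.08% lower. With the signal filter raised to the 60th percentile, 10738 brighter genes were tested, 994 of them higher and 1046 lower. The set was also chosen with earlier results of these data known. The median log2 change of the 30 genes was 0.17, beside 0.0022 over all tested genes, and 20 of the 30 changes were above 0. Without DNFB replicate 3, or without vehicle replicate 3, 7 genes passed in place of 11. Log2 changes here and below are differences of log2(signal + 16), given with their standard error (SE).

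After BAC, glucose transporters, Hk2, Hif1a and Ndrg1 rose. Of the tested enzymes from aldolase to pyruvate kinase, none passed as higher, although every BAC array was above every vehicle array for Pgk1 and Pkm. Gapdh was not tested and Eno1 not measured. The other rises were in Slc16a1, a lactate carrier, and Pfkfb4, and Aldoc and Pdk1 fell. That is 7 genes higher and 2 lower of 30, beside 14.2% of all tested genes that passed, 6.59% higher and 7.64% lower. With the filter at the 60th percentile, 919 of 10738 genes were higher and 1142 lower. The median log2 change of the 30 genes was 0.14, beside -0.031 over all tested genes.

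DNFB and BAC differed in 6 of the 30 genes, when their arrays were compared directly. Higd1a, Aldoc and Tpi1 were higher after DNFB, and Hif1a, Slc16a1 and Egln3 were lower. The count fell to 3 without DNFB replicate 1 or 3 and to 2 without BAC replicate 2 or 3, and no gene passed when the intensity trend was left out, where 10 had an unadjusted p under 0.05 in limma. Over all tested genes 6.8% passed in this comparison, 3.14% higher and 3.66% lower. With the filter at the 60th percentile, 518 of 10738 genes were higher and 551 lower. The median log2 difference was 0.11 for the 30 genes and 0.029 for all. A test of any difference among the treatments passed in 14 of the 30 genes, beside 19.4% of all tested genes. In all, 16 genes passed in at least 1 of the pairwise comparisons. The comparisons share arrays, and so their calls are not independent of each other.

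**Figure D1:**
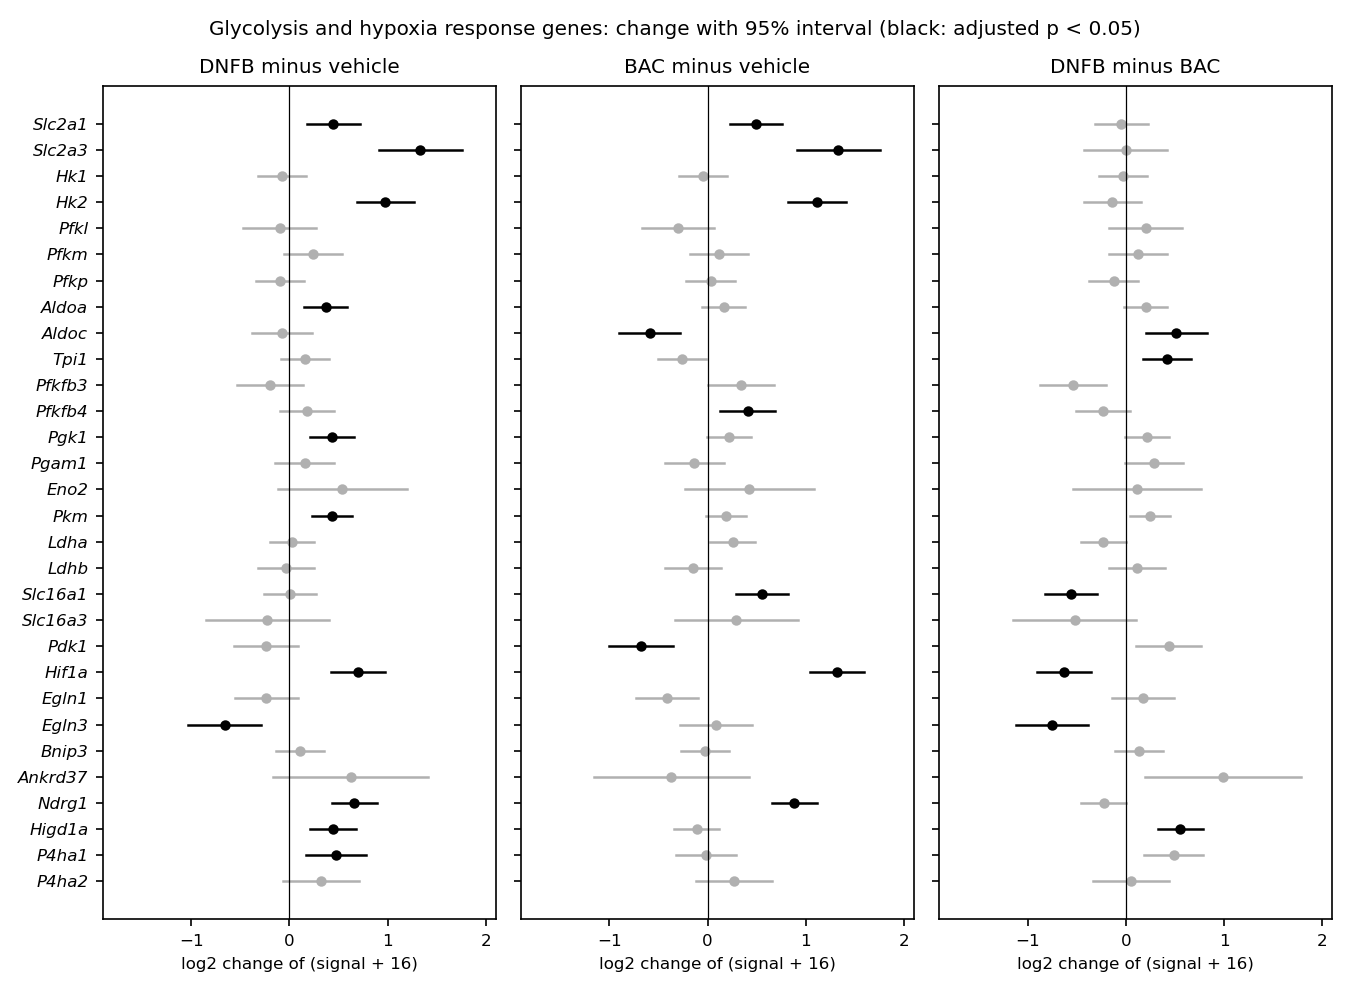
Log2 change of (signal + 16) with its 95% interval for the 30 tested genes, in DNFB minus vehicle (left), BAC minus vehicle (middle) and DNFB minus BAC (right), ordered from glucose uptake to hypoxia targets; black marks adjusted p under 0.05 and grey the rest. In the left panel 10 genes are black above 0 and 1 below, in the middle 7 and 2, and in the right 3 and 3.

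In the probe set used for each gene, both tested glucose transporters rose after each compound. Slc2a3 (Entrez gene 20527), which encodes the high-affinity transporter GLUT3, had signals of 331, 551 and 642 in DNFB arrays, 541, 417 and 522 in BAC arrays and 181, 188 and 186 in vehicle arrays. Every treated array was above every vehicle array, and DNFB replicate 1 was the lowest of the treated arrays. The log2 change was 1.33 ± 0.20 (adjusted p = 0.000302) for DNFB and 1.33 ± 0.20 (adjusted p = 0.000296) for BAC. A second probe set of Slc2a3 moved by 0.25 after DNFB and 1.07 after BAC, and 2 dimmer ones were not tested. Averaging all 4 gave a DNFB change of 0.73 (adjusted p = 0.0707). Slc2a1 (Entrez gene 20525), the broadly expressed transporter GLUT1, had signals of 971, 944 and 1001 in DNFB arrays, 928, 1025 and 1060.2 in BAC arrays and 845, 688 and 612 in vehicle arrays. In this probe set the treated and vehicle arrays did not overlap, and vehicle replicate 1 came closest to the treated arrays. Another Slc2a1 probe set had signals of 538, 762 and 614 in BAC arrays and 705, 585 and 526 in vehicle arrays. It moved by 0.48 after DNFB (limma adjusted p = 0.0497) and 0.070 after BAC (adjusted p = 0.816) in the fit of single probe sets. In the probe set used, the Slc2a1 change was 0.45 ± 0.13 (adjusted p = 0.0273) after DNFB and 0.49 ± 0.13 (adjusted p = 0.0162) after BAC. The DNFB call ended without DNFB replicate 1, 2 or 3 or vehicle replicate 2 or 3 (log2 changes 0.34 to 0.47, adjusted p 0.0535 to 0.132), and the BAC call without BAC replicate 2 or 3 or vehicle replicate 3 (log2 changes 0.39 to 0.48, adjusted p 0.0569 to 0.0792). Between DNFB and BAC, Slc2a3 differed by -0.0020 with a 95% interval of -0.43 to 0.42, and Slc2a1 by -0.045 with an interval of -0.31 to 0.22.

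Hexokinase traps glucose by phosphorylating it, and Hk2, the inducible form, rose after both compounds. Hk2 (Entrez gene 15277) had signals of 1337, 1283 and 1194 in DNFB arrays, 1191, 1548 and 1476 in BAC arrays and 575, 776 and 579.8 in vehicle arrays. The lowest treated array was well above the highest vehicle array, which was replicate 2. The mean was 1271 ± 72.1 in DNFB arrays, 1405 ± 189 in BAC arrays and 643 ± 114 in vehicle arrays (SD, n = 3 each). The log2 change was 0.98 ± 0.14 (adjusted p = 0.000179) after DNFB and 1.11 ± 0.14 (adjusted p = 5.07e-05) after BAC, and the difference of DNFB from BAC had a 95% interval of -0.43 to 0.16. Both Hk2 calls held in each of the 20 alternatives tried. Hk1, the constitutive form, was at -0.079 ± 0.11 (adjusted p = 0.726) after DNFB and -0.050 ± 0.11 (adjusted p = 0.821) after BAC. In the probe set used for Hk1, the arrays overlapped between all groups. A second, dimmer Hk1 probe set had signals of 239, 292 and 279 in DNFB arrays, below all of 376, 350 and 456 in vehicle arrays. It moved by -0.51 after DNFB (limma adjusted p = 0.0636) and -0.14 after BAC (adjusted p = 0.663) in the fit of single probe sets.

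**Figure D2:**
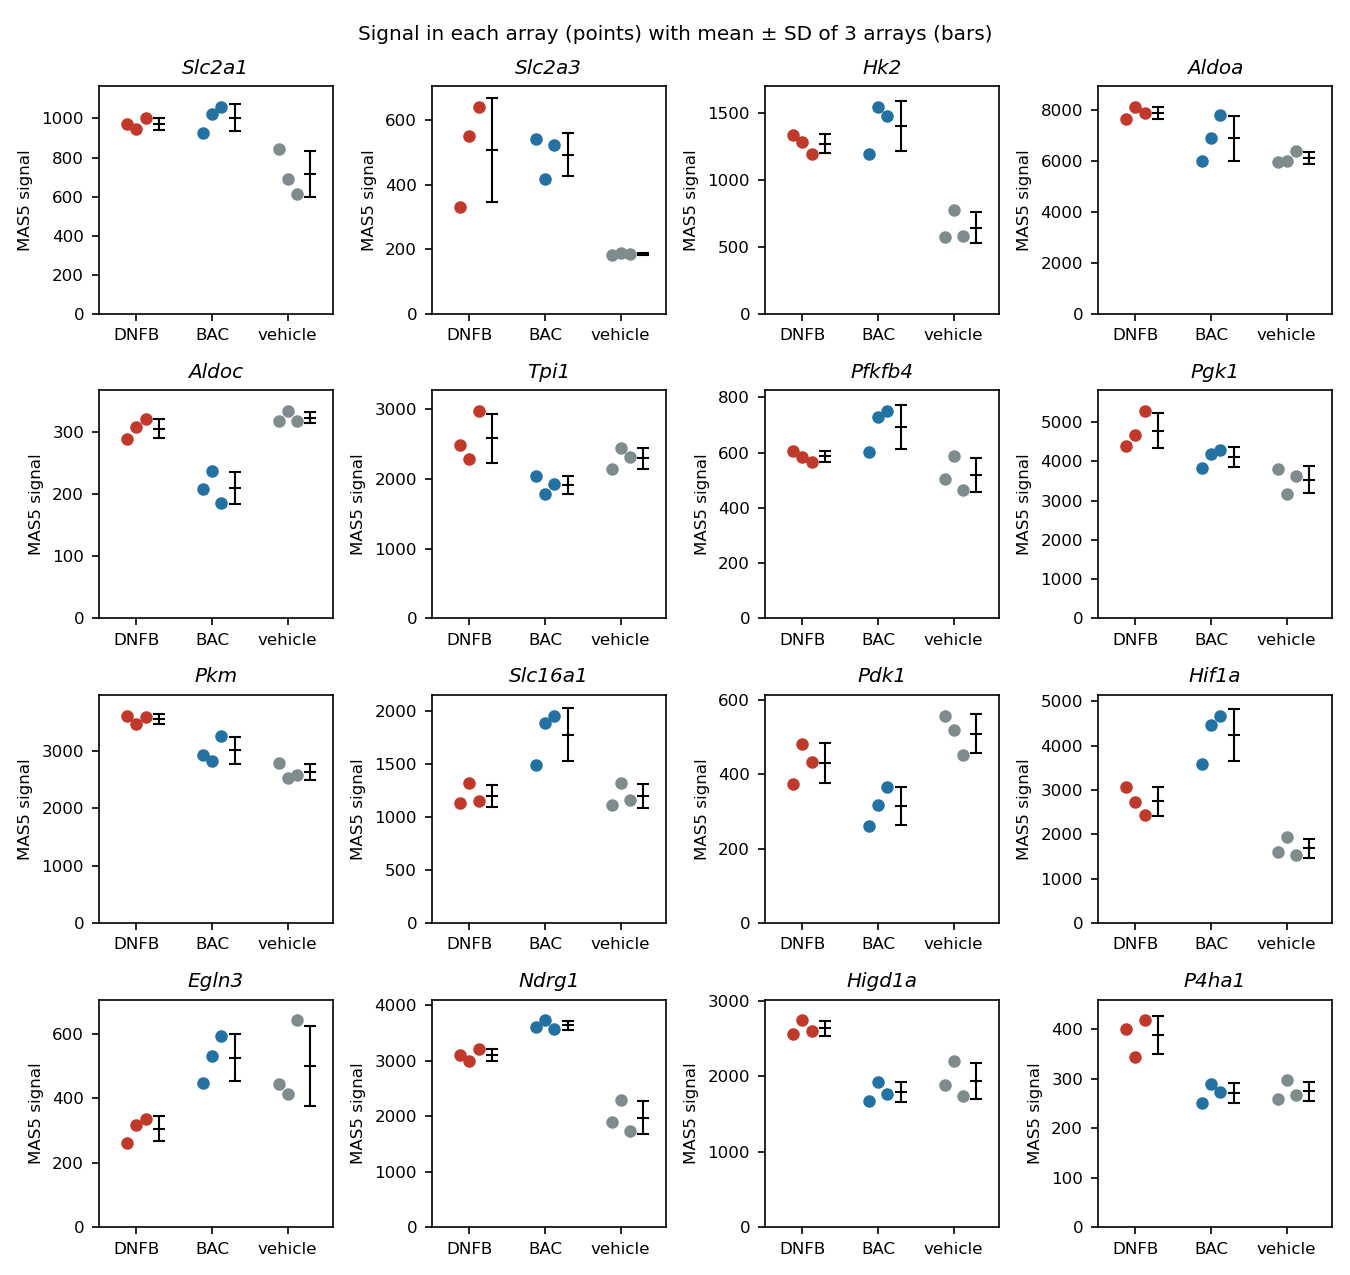
MAS5 signal of the 16 genes that passed in at least 1 comparison, with 1 point for each array in DNFB, BAC and vehicle groups (left to right in each panel) and the mean ± SD of 3 arrays beside the points; axes start at 0 and differ between genes. Hk2, Slc2a3, Hif1a and Ndrg1 lie above every vehicle array in both treated groups, while the Aldoa points spread from 6029 to 7802 within the BAC arrays.

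In the upper part of the pathway, Aldoa rose after DNFB and Aldoc fell after BAC. Aldoa (Entrez gene 11674), the main aldolase of muscle and many other cells, had signals of 7677, 8147 and 7916 in DNFB arrays, 6029, 6898 and 7802 in BAC arrays and 5991, 6011 and 6402 in vehicle arrays. DNFB arrays lay above all vehicle arrays, whereas the BAC arrays ran from the vehicle level to the DNFB level. Aldoa had log2 changes of 0.37 ± 0.10 (adjusted p = 0.0267) after DNFB and 0.16 ± 0.10 (adjusted p = 0.326) after BAC. The DNFB call ended without DNFB replicate 2 or 3 or vehicle replicate 1 or 2 (log2 changes 0.35 to 0.37, adjusted p 0.0584 to 0.101). Aldoc (Entrez gene 11676), an isoform best known from brain, had signals of 289, 307 and 319.9 in DNFB arrays, 208, 236 and 186 in BAC arrays and 317, 333 and 318 in vehicle arrays. BAC arrays were lower than all others, and DNFB and vehicle arrays overlapped. Its log2 change was -0.077 ± 0.15 (adjusted p = 0.798) after DNFB and -0.59 ± 0.15 (adjusted p = 0.0129) after BAC, and the DNFB minus BAC difference was 0.51 ± 0.15 (adjusted p = 0.0455). The BAC call ended without BAC replicate 3 (log2 change -0.51, adjusted p = 0.056). The difference between the compounds ended without DNFB replicate 1, 2 or 3, BAC replicate 1, 2 or 3 or vehicle replicate 1, 2 or 3 (log2 changes 0.43 to 0.60, adjusted p 0.0555 to 0.134).

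Tpi1 (Entrez gene 21991), triosephosphate isomerase, which interconverts the products of aldolase, had signals of 2492, 2284 and 2973 in DNFB arrays, 2045, 1782 and 1925 in BAC arrays and 2142, 2442 and 2316 in vehicle arrays. DNFB arrays lay above BAC arrays without overlap, and vehicle arrays fell between and among the DNFB arrays. The DNFB minus BAC difference was 0.42 ± 0.11 (adjusted p = 0.0366), and it ended without DNFB replicate 1 or 3, BAC replicate 1, 2 or 3 or vehicle replicate 1 (log2 changes 0.32 to 0.47, adjusted p 0.0508 to 0.154). Against the vehicle, Tpi1 had log2 changes of 0.16 ± 0.11 (adjusted p = 0.415) after DNFB and -0.26 ± 0.11 (adjusted p = 0.146) after BAC. The phosphofructokinases Pfkl, Pfkm and Pfkp, which commit sugar to the pathway, passed in no comparison. Their log2 changes were -0.10 ± 0.17, 0.24 ± 0.14 and -0.10 ± 0.12 after DNFB and -0.30 ± 0.17, 0.12 ± 0.14 and 0.029 ± 0.12 after BAC.

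The PFKFB enzymes set the level of fructose-2,6-bisphosphate, an activator of phosphofructokinase. Pfkfb4 (Entrez gene 270198) had signals of 606, 586 and 567 in DNFB arrays, 603, 728 and 749.7 in BAC arrays and 503, 588 and 466 in vehicle arrays. BAC arrays were above vehicle arrays with no overlap, but BAC replicate 1 was close to vehicle replicate 2. Its log2 change was 0.18 ± 0.13 (adjusted p = 0.437) after DNFB and 0.41 ± 0.13 (adjusted p = 0.048) after BAC. The BAC call ended without DNFB replicate 1, 2 or 3, BAC replicate 2 or 3 or vehicle replicate 1 or 3 (log2 changes 0.34 to 0.41, adjusted p 0.0504 to 0.166). Pfkfb3, the form most linked to inflammation and hypoxia, had mean signals of 191 ± 17.1 in DNFB arrays, 284 ± 29.6 in BAC arrays and 221 ± 21.0 in vehicle arrays. Its DNFB minus BAC difference of -0.54 ± 0.16 (adjusted p = 0.0565) missed the threshold, although the arrays did not overlap. Against vehicle, Pfkfb3 had log2 changes of -0.20 ± 0.16 (adjusted p = 0.485) after DNFB and 0.34 ± 0.16 (adjusted p = 0.18) after BAC. Every BAC array was above every vehicle array. A second, dimmer Pfkfb3 probe set moved by 0.60 after DNFB and 1.16 after BAC, and neither passed. With probe sets averaged, the BAC change passed in limma at 0.75 (adjusted p = 0.0398).

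In the lower part of the pathway, where energy is recovered, Pgk1 and Pkm rose after DNFB. Pgk1 (Entrez gene 18655), phosphoglycerate kinase, had signals of 4398, 4685 and 5281 in DNFB arrays, 3838, 4201 and 4302 in BAC arrays and 3815, 3165 and 3633 in vehicle arrays. The groups lay in steps, with every DNFB array above every BAC array and every BAC array above every vehicle array. Pgk1 had log2 changes of 0.44 ± 0.11 (adjusted p = 0.0122) after DNFB and 0.22 ± 0.11 (adjusted p = 0.194) after BAC. The DNFB call ended without DNFB replicate 3 (log2 change 0.36, adjusted p = 0.059). Pkm (Entrez gene 18746), pyruvate kinase of muscle and most other tissues, had signals of 3612, 3463 and 3594 in DNFB arrays, 2928, 2826 and 3266 in BAC arrays and 2791, 2531 and 2586 in vehicle arrays. Again no DNFB array overlapped a BAC array and no BAC array a vehicle array. Pkm had log2 changes of 0.43 ± 0.10 (adjusted p = 0.00672) after DNFB and 0.19 ± 0.10 (adjusted p = 0.221) after BAC, and the DNFB minus BAC difference was 0.24 ± 0.10 (adjusted p = 0.15). With every array centred on the median of all probe sets, the DNFB change was 0.42 (adjusted p = 0.0549).

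Pgam1, phosphoglycerate mutase, had log2 changes of 0.15 ± 0.14 (adjusted p = 0.546) after DNFB and -0.13 ± 0.14 (adjusted p = 0.577) after BAC. Eno2, an enolase best known from neurons, was dim, with mean signals of 86.3 in DNFB arrays, 77.7 in BAC arrays and 53.2 in vehicle arrays. Its change was 0.54 ± 0.31 (adjusted p = 0.294) after DNFB and 0.42 ± 0.31 (adjusted p = 0.404) after BAC. Gapdh, which oxidises glyceraldehyde phosphate, was measured by array control probe sets that were not tested. Its 3′ control had means of 8869 ± 208 in DNFB arrays, 7874 ± 881 in BAC arrays and 6615 ± 354 in vehicle arrays (SD, n = 3). The log2 change over the 3 control probe sets lay between 0.19 and 0.42 after DNFB and between 0.15 and 0.25 after BAC. Gapdh 3′ signal divided by 5′ signal, a measure of RNA integrity, was 0.841, 1.36 and 0.943 in DNFB arrays, 0.917 to 0.932 in BAC arrays and 0.856 to 0.880 in vehicle arrays.

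Skeletal muscle, a tissue rich in glycolytic enzymes, was present in the ear samples, and its markers moved with the same groups as Aldoa, Pgk1 and Pkm. Of 12 muscle markers, 7 rose after DNFB and none fell, beside 13.8% of all tested genes that passed, with a median log2 change of 0.50. Tnnc2, a subunit of fast muscle troponin, had a log2 change of 0.53 ± 0.12 (adjusted p = 0.00929) and Acta1, skeletal actin, one of 0.40 ± 0.12 (adjusted p = 0.0423). After BAC 0 of 12 passed the limma test, 4 had an unadjusted p under 0.05, and the median was 0.30. The summed signal of the 12 markers was 58114 to 72899 in DNFB arrays, 46570.1 to 70857 in BAC arrays and 40896 to 53162 in vehicle arrays. BAC replicate 3 had the highest marker sum of the BAC arrays and also the highest Aldoa, Pfkm, Pgk1 and Pkm signals of those arrays. Within DNFB, replicate 2 had the highest sum and the highest Aldoa and Pfkm signals, but the lowest Pkm signal. Within vehicle, replicate 3 had the highest sum and the highest Aldoa and Pfkm signals, with Pgk1 and Pkm between. The muscle isoforms of the pathway were higher after DNFB than in vehicle too, Eno3 by 0.43 ± 0.14 (adjusted p = 0.0481) and Pgam2 by 0.60 ± 0.21 (adjusted p = 0.0734), of which Eno3 alone passed. The part of muscle RNA in the glycolytic results was not tested.

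**Figure D3:**
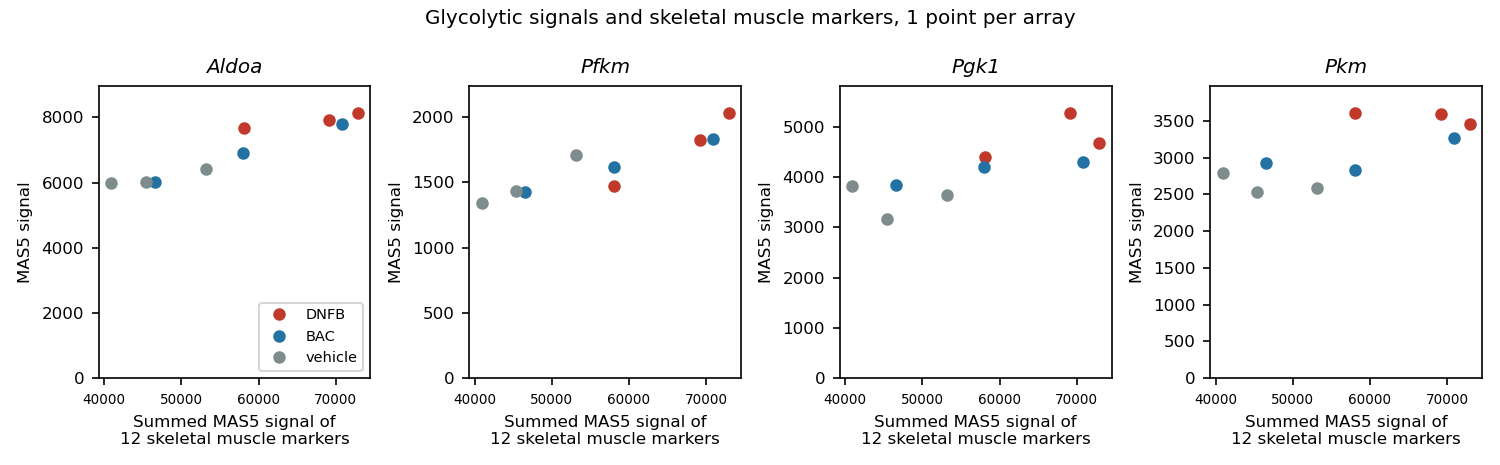
MAS5 signal of Aldoa, Pfkm, Pgk1 and Pkm (vertical axes, starting at 0) against the summed MAS5 signal of 12 skeletal muscle markers (horizontal axes, not starting at 0), with 1 point per array in DNFB, BAC and vehicle groups. Aldoa runs from 5991 in the array with the lowest marker sum, 40896, to 8147 in the array with the highest, 72899, and all 3 Pkm points of DNFB lie above the others.

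Slc16a1 (Entrez gene 20501), the monocarboxylate transporter MCT1, had signals of 1127, 1318 and 1148 in DNFB arrays, 1487, 1881 and 1954 in BAC arrays and 1109, 1319.9 and 1160.2 in vehicle arrays. BAC arrays were above all others, and DNFB arrays lay within the vehicle range. Its log2 change was 0.0017 ± 0.12 (adjusted p = 0.995) after DNFB and 0.56 ± 0.12 (adjusted p = 0.00735) after BAC, and the DNFB minus BAC difference was -0.55 ± 0.12 (adjusted p = 0.0143). That difference ended without DNFB replicate 3 or BAC replicate 2 or 3 (log2 changes -0.53 to -0.48, adjusted p 0.0597 to 0.0712). A second Slc16a1 probe set had signals of only 3.27 to 41.3 in the 9 arrays and was not tested, but the mean of both gave 0.11 for BAC against vehicle (adjusted p = 0.798) and turned the DNFB minus BAC difference to 0.038. Lactate dehydrogenase Ldha, which makes lactate, had mean signals of 4445 ± 279.7 in DNFB arrays, 5209.6 ± 401 in BAC arrays and 4376 ± 507 in vehicle arrays. Its change was 0.027 ± 0.11 (adjusted p = 0.911) after DNFB, with a 95% interval of -0.20 to 0.25, and 0.25 ± 0.11 (adjusted p = 0.132) after BAC, with an interval of 0.027 to 0.48. Ldhb, which favours the return to pyruvate, and Slc16a3, the lactate exporter MCT4, passed in no comparison. Slc16a3 signals were uneven in vehicle, at 94.1, 80.4 and 219.

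Pdk1 (Entrez gene 228026), a kinase that shuts off pyruvate dehydrogenase and is a classic HIF target, fell after BAC. Its signals were 374, 482 and 433 in DNFB arrays, 262, 316 and 366 in BAC arrays and 557, 518 and 453 in vehicle arrays. Every BAC array was below every DNFB and vehicle array. The change was -0.24 ± 0.15 (adjusted p = 0.358) after DNFB and -0.68 ± 0.15 (adjusted p = 0.00794) after BAC, and the DNFB minus BAC difference was 0.44 ± 0.15 (adjusted p = 0.108). The BAC call held in each of the 20 alternatives, with adjusted p up to 0.0472.

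Hif1a rose after both compounds and was lower after DNFB than after BAC. Hif1a (Entrez gene 15251), the regulated alpha subunit, had signals of 3074, 2724 and 2426 in DNFB arrays, 3581, 4478 and 4678 in BAC arrays and 1593, 1935 and 1537 in vehicle arrays. The groups did not overlap, with BAC arrays highest and DNFB arrays between them and the vehicle. Means were 2741 ± 324 in DNFB arrays, 4246 ± 584 in BAC arrays and 1689 ± 215 in vehicle arrays. Hif1a had log2 changes of 0.69 ± 0.13 (adjusted p = 0.00191) after DNFB and 1.32 ± 0.13 (adjusted p = 5.15e-06) after BAC, and both calls held in each of the 20 alternatives. DNFB minus BAC was -0.63 ± 0.13 (adjusted p = 0.00851), with an adjusted p of 0.0806 when probe sets were averaged and of 0.0777 when the intensity trend was left out. All 3 tested Hif1a probe sets rose after BAC, by 0.97 to 1.93, and 2 of 3 after DNFB.

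Of the prolyl hydroxylases that mark HIF for destruction, Egln3 fell after DNFB and Egln1 passed in no comparison. Egln3 (Entrez gene 112407), itself a HIF target, had signals of 263, 317 and 337 in DNFB arrays, 449, 532 and 594 in BAC arrays and 445, 412 and 642 in vehicle arrays. DNFB arrays were below all BAC and vehicle arrays, and vehicle replicate 3 was the highest of all. Egln3 had log2 changes of -0.66 ± 0.17 (adjusted p = 0.0179) after DNFB and 0.087 ± 0.17 (adjusted p = 0.791) after BAC, and of -0.75 ± 0.17 (adjusted p = 0.0165) between DNFB and BAC. The DNFB against vehicle call ended without DNFB replicate 1 or vehicle replicate 3 (log2 changes -0.56 to -0.47, adjusted p 0.072 to 0.103). The difference from BAC ended without DNFB replicate 1 or BAC replicate 2 or 3 (log2 changes -0.73 to -0.65, adjusted p 0.0572 to 0.0715). A second probe set moved by -0.17 after DNFB, and with the mean of both the changes were -0.41 against vehicle (adjusted p = 0.274) and -0.36 against BAC (adjusted p = 0.389). Egln1, the main oxygen sensor, had log2 changes of -0.24 ± 0.15 (adjusted p = 0.349) after DNFB and -0.41 ± 0.15 (adjusted p = 0.0811) after BAC. Of its 2 tested probe sets, 1 was lower after BAC in the fit of single probe sets. In both probe sets every BAC array was below every vehicle array. The fall of Egln1 after BAC passed in 3 of the 20 alternatives, among them the mean of probe sets.

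Neutrophil markers rose with the same treatments. Of 6 tested markers 5 rose after DNFB and 6 after BAC, beside 13.8% and 14.2% of all tested genes that passed. Their summed signal was 10811 to 20439 in DNFB arrays, 19333 to 28072.5 in BAC arrays and 1194 to 5680.4 in vehicle arrays. As for the muscle markers, such a sum adds raw signals of different probe sets, so its brightest genes weigh most. It does not count cells. Vehicle replicate 2 held the highest of the vehicle sums, and it was also the vehicle array with the highest Hif1a, Hk2, Slc2a3, Ndrg1 and Higd1a signals. Without it the changes of Hif1a were 0.80 after DNFB and 1.42 after BAC, and those of Hk2 were 1.12 and 1.25. Within DNFB, replicate 3 had the highest neutrophil sum, the highest Slc2a3 and Ndrg1 signals and the lowest Hif1a and Hk2 signals, with Higd1a between. Within BAC, replicate 3 had the highest sum, the highest Hif1a signal and the lowest Ndrg1 signal, with Hk2, Slc2a3 and Higd1a between. Of 7 monocyte and macrophage markers 4 rose after each compound, beside the same shares of all tested genes. Their sum was 12378 to 13756 in DNFB arrays, 14165 to 15359 in BAC arrays and 9146 to 10824 in vehicle arrays. The part of leukocyte RNA in these results was not tested.

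Among the hypoxia targets outside metabolism, Ndrg1 rose after both compounds. Ndrg1 (Entrez gene 17988), a gene induced by stress and differentiation, had signals of 3113, 3002 and 3219 in DNFB arrays, 3607, 3731 and 3572 in BAC arrays and 1895, 2299.7 and 1735 in vehicle arrays. BAC arrays were above all DNFB arrays, which were above all vehicle arrays. Its log2 change was 0.66 ± 0.11 (adjusted p = 0.000669) after DNFB and 0.88 ± 0.11 (adjusted p = 4.87e-05) after BAC, and both calls held in each of the 20 alternatives. All 5 Ndrg1 probe sets rose after BAC and 3 of 5 after DNFB. DNFB minus BAC was -0.22 ± 0.11 (adjusted p = 0.246), and -0.39 (adjusted p = 0.0392) with the mean of the probe sets.

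Higd1a and P4ha1 rose after DNFB. Higd1a (Entrez gene 56295), a small mitochondrial protein of the respiratory chain, had signals of 2556, 2741 and 2603 in DNFB arrays, 1671, 1926 and 1771 in BAC arrays and 1886, 2199 and 1736 in vehicle arrays. DNFB arrays were above every other array. Higd1a had log2 changes of 0.44 ± 0.11 (adjusted p = 0.0124) after DNFB and -0.11 ± 0.11 (adjusted p = 0.551) after BAC, and the DNFB minus BAC difference was 0.56 ± 0.11 (adjusted p = 0.00587). Against vehicle the DNFB call ended without vehicle replicate 1 or 3 (log2 changes 0.37 to 0.43, adjusted p 0.0541 to 0.0664). Its other probe sets moved by 0.0027 and 0.055 after DNFB, and the mean of probe sets gave 0.17 (adjusted p = 0.466). P4ha1 (Entrez gene 18451), a subunit of the enzyme that hydroxylates collagen, had signals of 401, 345 and 419 in DNFB arrays, 251, 290.3 and 274 in BAC arrays and 260.2, 297 and 267 in vehicle arrays. DNFB arrays were again above all others. Its change was 0.47 ± 0.14 (adjusted p = 0.0382) after DNFB and -0.016 ± 0.14 (adjusted p = 0.96) after BAC, and the call ended without DNFB replicate 1 or 3 or vehicle replicate 1 or 3 (log2 changes 0.42 to 0.45, adjusted p 0.0935 to 0.138). P4ha2, its companion isoform, passed in no comparison, nor did Bnip3, which acts in removing mitochondria. Bnip3 had mean signals of 3018 ± 409 in DNFB arrays, 2743 ± 246 in BAC arrays and 2789.7 ± 164 in vehicle arrays. Ankrd37, a dim HIF target, had signals of 56.2, 108 and 91.6 in DNFB arrays, 21.9, 34.7 and 47.5 in BAC arrays and 45.6, 57.1 and 42.4 in vehicle arrays, and its DNFB minus BAC difference was 0.99 ± 0.37 (adjusted p = 0.131).

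The 14 genes that passed in no comparison were Hk1, Pfkl, Pfkm, Pfkp, Pfkfb3, Pgam1, Eno2, Ldha, Ldhb, Slc16a3, Egln1, Bnip3, Ankrd37 and P4ha2. Their log2 changes lay between -0.24 and 0.62 after DNFB and between -0.41 and 0.42 after BAC. Their smallest adjusted p was 0.287 against the vehicle for DNFB, 0.0811 for BAC and 0.0565 between the compounds. A p above the threshold does not show that a gene stayed the same.

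Settings other than the choice of arrays also ended calls. Centring on the median of all probe sets ended those of Slc2a1 after both compounds, Aldoa, Pgk1, Pkm, Higd1a and P4ha1 after DNFB, and Pfkfb4 and Slc16a1 after BAC, with adjusted p of 0.0549 to 0.218. Leaving out the intensity trend ended Slc2a1 after both compounds, Aldoa, Pgk1, Higd1a, P4ha1 and Egln3 after DNFB, and Pfkfb4 after BAC, with adjusted p of 0.0502 to 0.107. Quantile normalization lowered the DNFB change of Aldoa to 0.21 (adjusted p = 0.148) and ended the call of Pgk1 (adjusted p = 0.0748). The 6 differences between DNFB and BAC each ended when the trend was left out (adjusted p 0.0568 to 0.130), and none of the 6 passed in its reported direction when probe sets were averaged. Averaging probe sets gave Aldoc -0.53 after BAC (adjusted p = 0.149), Slc2a1 0.34 after BAC (adjusted p = 0.101) and P4ha1 0.30 after DNFB (adjusted p = 0.145).

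**Figure D4:**
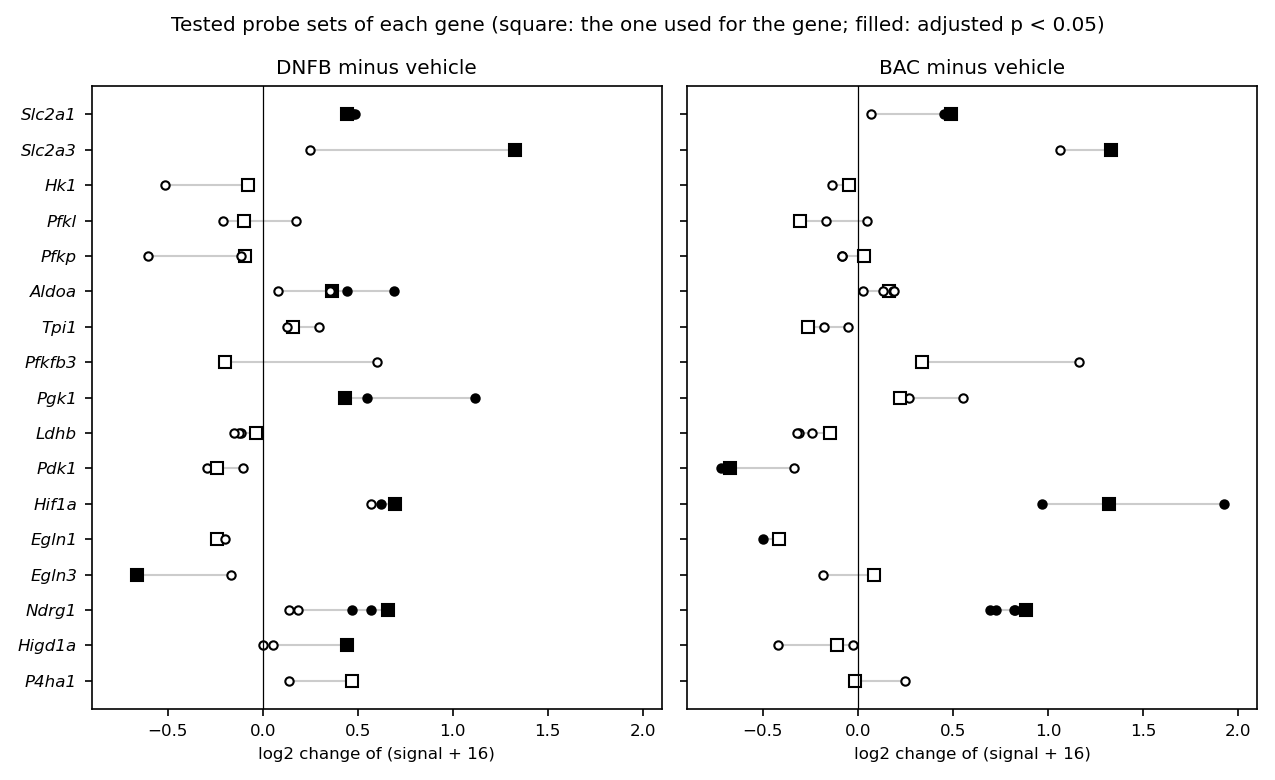
Log2 change of (signal + 16) for each tested probe set of the genes with several, in DNFB minus vehicle (left) and BAC minus vehicle (right); the square is the probe set used for the gene, filled symbols passed at adjusted p under 0.05 in the fit of 25079 probe sets, and grey lines join probe sets of a gene. Hif1a and Ndrg1 are filled throughout on the right. On the left the longest lines are those of Slc2a3, Pfkfb3, Pgk1 and Aldoa, and Higd1a, Egln3 and Slc2a3 each have filled and open symbols.

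In the fit of single probe sets, 11.4% of 25079 passed for DNFB against vehicle, 11.4% for BAC against vehicle and 5.26% for DNFB against BAC. All 3 tested probe sets of Pgk1 rose after DNFB, by 0.44 to 1.12, as did all 3 of Slc2a1, by 0.45 to 0.49. After BAC 2 of the 3 Slc2a1 probe sets rose. For Aldoa 3 of 5 rose after DNFB, by 0.37 to 0.69 where they passed, and none after BAC. For Pdk1 2 of 3 fell after BAC. P4ha1 and Pfkfb4 had no probe set past the threshold in this larger fit. No gene of the set had probe sets called in opposite directions.

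In a list of 28 tested HIF targets outside the set, 9 rose and 4 fell after DNFB, 7 rose and 2 fell after BAC, and 1 was higher and 4 lower in DNFB than in BAC. Over all tested genes, 13.8% passed after DNFB, 14.2% after BAC and 6.8% between them. The median log2 change was 0.13 after DNFB, -0.023 after BAC and 0.053 between them. The largest changes were in Errfi1, an inhibitor of the EGF receptor, Bhlhe40, a transcriptional repressor, and Adm, the vasodilator peptide adrenomedullin. Errfi1 had mean signals of 5841 ± 384 in DNFB arrays, 9242 ± 859 in BAC arrays and 2174 ± 316 in vehicle arrays. It had log2 changes of 1.43 ± 0.11 (adjusted p = 8.86e-07) after DNFB and 2.09 ± 0.11 (adjusted p = 1.61e-08) after BAC, and of -0.66 ± 0.11 (adjusted p = 0.00252) between DNFB and BAC. Bhlhe40 had log2 changes of 1.41 ± 0.15 (adjusted p = 1.66e-05) after DNFB and 2.32 ± 0.15 (adjusted p = 9.5e-08) after BAC, with DNFB minus BAC at -0.91 ± 0.15 (adjusted p = 0.00189). Adm had log2 changes of 1.31 ± 0.22 (adjusted p = 0.00066) after DNFB and 2.20 ± 0.22 (adjusted p = 5.15e-06) after BAC, with DNFB minus BAC at -0.88 ± 0.22 (adjusted p = 0.022). That difference ended without DNFB replicate 2 or 3 or BAC replicate 1 or 2 (log2 changes -0.84 to -0.71, adjusted p 0.0677 to 0.113). Vegfa, the growth factor for vessels, had log2 changes of 1.19 ± 0.17 (adjusted p = 0.000218) after DNFB and 1.11 ± 0.17 (adjusted p = 0.000402) after BAC, and the 95% interval of the DNFB minus BAC difference was -0.28 to 0.45.

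Ddit4, an inhibitor of mTOR signalling, fell after DNFB, with mean signals of 914 ± 131 in DNFB arrays, 1710.3 ± 116 in BAC arrays and 2215 ± 438 in vehicle arrays. Its change was -1.25 ± 0.14 (adjusted p = 2.36e-05) after DNFB and -0.35 ± 0.14 (adjusted p = 0.113) after BAC, and DNFB minus BAC was -0.90 ± 0.14 (adjusted p = 0.00106). Kdm3a, a histone demethylase, had log2 changes of 0.55 ± 0.12 (adjusted p = 0.00668) after DNFB and -0.37 ± 0.12 (adjusted p = 0.052) after BAC, with DNFB minus BAC at 0.92 ± 0.12 (adjusted p = 0.000212). The calls named here for Errfi1, Bhlhe40, Vegfa, Ddit4 and Kdm3a, and the rises of Adm, held in each of the 20 alternatives. The other rises after DNFB were in Lox, Gys1, Ero1a, Tfrc and the genes above, and the other falls were in Insig2, Rora and Mxi1. After BAC, Lox, Angptl4 and Gys1 also rose, and Rora and Kdm4b fell. Of these, the fall of Insig2 held in each of the 20 alternatives, and the rise of Gys1 after DNFB ended only with the mean of its probe sets. The DNFB call of Tfrc ended in 11 alternatives, among them the fits without DNFB replicate 1 or 2, BAC replicate 2 or 3 or vehicle replicate 1, 2 or 3 (log2 changes 0.27 to 0.40, adjusted p 0.0532 to 0.175). That of Rora ended in 8, among them the fits without DNFB replicate 2 or 3 or vehicle replicate 1 or 2 (log2 changes -0.45 to -0.32, adjusted p 0.0602 to 0.138). That of Ero1a ended in 6, among them the fits without DNFB replicate 1 or 2 or vehicle replicate 1 or 3 (log2 changes 0.39 to 0.53, adjusted p 0.0542 to 0.163). That of Mxi1 also ended in 6, among them the fits without DNFB replicate 1 or vehicle replicate 1 or 3 (log2 changes -0.41 to -0.30, adjusted p 0.109 to 0.13). The BAC call of Gys1 ended in 14, among them the fits without DNFB replicate 2 or 3, BAC replicate 1, 2 or 3 or vehicle replicate 1, 2 or 3 (log2 changes 0.48 to 0.64, adjusted p 0.0526 to 0.176). That of Kdm4b ended in 7, among them the fits without BAC replicate 2 or 3 or vehicle replicate 1, 2 or 3 (log2 changes -0.77 to -0.60, adjusted p 0.0599 to 0.135). That of Rora ended in 3, among them the fits without BAC replicate 3 or vehicle replicate 2 (log2 changes -0.39 to -0.38, adjusted p 0.0579 to 0.0717). Angptl4 lost its BAC call without BAC replicate 2 or 3 or vehicle replicate 1 or 3 (log2 changes 0.47 to 0.66, adjusted p 0.0716 to 0.14), and was -0.0043 with probe sets averaged. Lox, which cross-links collagen, had log2 changes of 1.14 ± 0.17 (adjusted p = 0.000275) after DNFB and 0.80 ± 0.17 (adjusted p = 0.00482) after BAC, but 0.60 and 0.43 when its probe sets were averaged (adjusted p = 0.0656 and 0.178). Car9, a carbonic anhydrase often used as a hypoxia marker, was dim and passed in neither comparison, at 0.52 ± 0.33 (adjusted p = 0.353) after DNFB and 0.24 ± 0.33 (adjusted p = 0.688) after BAC.

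**Figure D5:**
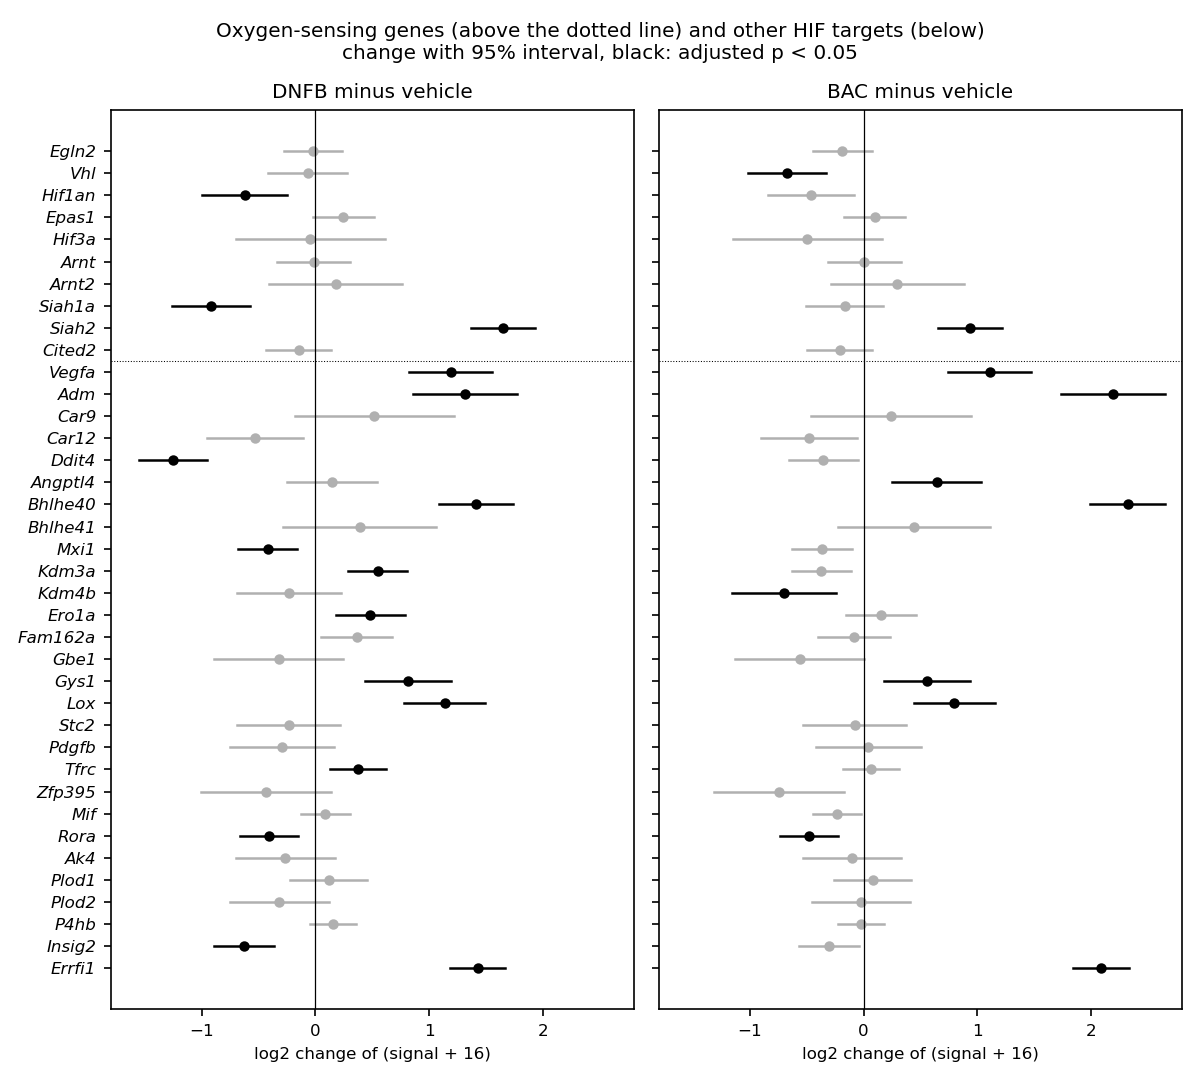
Log2 change of (signal + 16) with its 95% interval for 10 oxygen-sensing genes (above the dotted line) and 28 further HIF targets (below it), in DNFB minus vehicle (left) and BAC minus vehicle (right); black marks adjusted p under 0.05 and grey the rest. Siah2, Vegfa, Adm, Bhlhe40, Lox, Gys1 and Errfi1 are black above 0 in both panels, and Ddit4 is black below 0 on the left and grey on the right.

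Of 10 other oxygen-sensing genes, Siah2 rose and Siah1a and Hif1an fell after DNFB, beside 13.8% of all tested genes that passed, and Siah2 rose and Vhl fell after BAC, beside 14.2%. Siah2, a ubiquitin ligase that degrades prolyl hydroxylases, had mean signals of 559.8 ± 23.8 in DNFB arrays, 335 ± 1.31 in BAC arrays and 167 ± 12.4 in vehicle arrays. It had log2 changes of 1.65 ± 0.13 (adjusted p = 8.86e-07) after DNFB and 0.94 ± 0.13 (adjusted p = 0.000192) after BAC, with DNFB minus BAC at 0.71 ± 0.13 (adjusted p = 0.00408), and all of these held in each alternative. Siah1a had log2 changes of -0.92 ± 0.16 (adjusted p = 0.00113) after DNFB and -0.75 ± 0.16 (adjusted p = 0.0106) between DNFB and BAC. The DNFB against vehicle call of Siah1a ended in 1 of the 20 alternatives and the difference from BAC in 4, among them the fit without BAC replicate 2 (log2 change -0.69, adjusted p = 0.0537). Hif1an, the asparagine hydroxylase FIH, had a log2 change of -0.62 ± 0.18 (adjusted p = 0.0284) after DNFB, but -0.025 when its probe sets were averaged (adjusted p = 0.966). That call also ended without DNFB replicate 1 or 2 or vehicle replicate 1 or 3 (log2 changes -0.68 to -0.50, adjusted p 0.0529 to 0.142). Vhl, the recognition subunit for hydroxylated HIF, had log2 changes of -0.67 ± 0.16 (adjusted p = 0.0113) after BAC and 0.60 ± 0.16 (adjusted p = 0.036) between DNFB and BAC. The BAC call ended without vehicle replicate 1 (log2 change -0.64, adjusted p = 0.0516), and was -0.37 with probe sets averaged (adjusted p = 0.142). The Vhl difference between the compounds ended in 10 of the 20 alternatives. Among these were the average of its probe sets, at 0.13 (adjusted p = 0.697), and the fits without DNFB replicate 2 or 3, BAC replicate 1 or 2 or vehicle replicate 1 (log2 changes 0.50 to 0.60, adjusted p 0.0542 to 0.133). The beta subunit gene Arnt was at -0.016 ± 0.15 (adjusted p = 0.962) after DNFB and 0.0073 ± 0.15 (adjusted p = 0.984) after BAC, and Epas1, the sister alpha subunit, at 0.25 ± 0.13 (adjusted p = 0.237) and 0.10 ± 0.13 (adjusted p = 0.673).

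Of 15 tested glycolytic isoforms and branch genes, Eno3 rose and Gapdhs fell after DNFB, and Bpgm fell after BAC. These are 2 of 15 and 1 of 15, shares no higher than the 13.8% and 14.2% of all tested genes. Gapdhs, a testis form of the enzyme, had a log2 change of -1.22 ± 0.37 (adjusted p = 0.037), and Bpgm, which makes a regulator of haemoglobin in red cells, one of -0.66 ± 0.20 (adjusted p = 0.0381). Each of these calls ended when 1 array was left out: for Eno3 without DNFB replicate 2 or 3, BAC replicate 1 or 2 or vehicle replicate 1 or 3 (log2 changes 0.31 to 0.49, adjusted p 0.0567 to 0.229), for Gapdhs without DNFB replicate 1 or 2 or vehicle replicate 1 or 3 (log2 changes -1.21 to -0.93, adjusted p 0.0882 to 0.142), and for Bpgm without BAC replicate 2 or 3 or vehicle replicate 1 or 2 (log2 changes -0.73 to -0.49, adjusted p 0.0587 to 0.16). Of 11 genes for the entry of pyruvate into mitochondria, Dld alone passed after BAC, beside 14.2% of all tested genes, at 0.49 ± 0.13 (adjusted p = 0.0235), and it ended without BAC replicate 2 or vehicle replicate 1 or 3 (log2 changes 0.40 to 0.47, adjusted p 0.0708 to 0.122). In that list 0 passed limma after DNFB, where 2 had an unadjusted p under 0.05, with the smallest adjusted p in Pdk3 at -0.41 ± 0.14 (adjusted p = 0.0633). Of 6 tested genes of the pentose phosphate pathway, which makes NADPH from glucose, Pgd alone passed after DNFB, beside 13.8% of all tested genes. Pgd had mean signals of 2284 ± 364 in DNFB arrays, 1203 ± 88.3 in BAC arrays and 1254 ± 85.8 in vehicle arrays. It had log2 changes of 0.85 ± 0.12 (adjusted p = 0.000218) after DNFB and 0.91 ± 0.12 (adjusted p = 0.000257) between DNFB and BAC, and both held in each alternative. Of 4 tested gluconeogenesis genes 0 passed the limma test in any comparison, and 1 had an unadjusted p under 0.05 after DNFB, Pck2 at 0.45 ± 0.18 (adjusted p = 0.12). Between DNFB and BAC, 0 of the further isoforms passed limma while 3 had an unadjusted p under 0.05, the smallest in Ldhd at -0.97 ± 0.30 (adjusted p = 0.064). Likewise 0 of the pyruvate genes passed and 2 had an unadjusted p under 0.05, the smallest in Dlat at -0.40 ± 0.14 (adjusted p = 0.11). After BAC, 0 pentose phosphate genes passed by either measure, and the smallest p was that of Taldo1 at 0.17 ± 0.10 (adjusted p = 0.31).

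Other cell types in the ear were followed by their markers too. The counts stand beside 13.8% of all tested genes that passed after DNFB and 14.2% after BAC. In lists this short, a single call is not set apart from those shares. Of 6 keratinocyte markers 3 fell after DNFB and 1 after BAC, and Trp63, a regulator of basal cells, had log2 changes of -1.10 ± 0.11 (adjusted p = 7.14e-06) after DNFB and -0.061 ± 0.11 (adjusted p = 0.764) after BAC. The keratinocyte sum was 59549.7 to 70609 in DNFB arrays, 64473 to 70205 in BAC arrays and 64364 to 74787 in vehicle arrays. Of 6 fibroblast markers 1, Lum, rose after DNFB, with a sum of 70892 to 81475 in DNFB arrays, 64725 to 75324 in BAC arrays and 56128 to 65017 in vehicle arrays. Of 5 endothelial markers 2 rose after DNFB and 1 after BAC, with a sum of 1601 to 2196 in DNFB arrays, 1370.15 to 1716 in BAC arrays and 1013 to 1253 in vehicle arrays. Of 4 adipocyte and sebocyte markers Plin2 fell after DNFB, and of 3 cartilage markers Comp rose. Alas2, the one tested red cell marker, had log2 changes of 0.28 ± 0.27 (adjusted p = 0.568) after DNFB and 0.51 ± 0.27 (adjusted p = 0.241) after BAC. No detected marker of any list lay at or below the 40th percentile in every array, and the part of these cells in the glycolytic results was not tested.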

How the data were processed

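RNA of 9 ear skin samples was hybridised to Affymetrix mouse arrays, 3 per group. The deposited values are MAS5 signal intensities from Affymetrix Expression Console, per the submitters' processing notes; the sources used here give no other settings. Each array's trimmed mean, leaving out 2% at each end, was the same, and no arrays were identical. Log2(signal + 16) was fitted over all 9 arrays in limma 3.58.1 (R 4.3.3) with an intensity trend, and p-values were adjusted by Benjamini-Hochberg over 14122 genes. A gene was represented by its probe set of highest mean log2 signal, and control probe sets were left out. Tests were two-sided, with 6 residual and 9.0936 prior degrees of freedom; an exact permutation test of 3 against 3 arrays cannot go below p = 0.1. The fit was tested on simulated data with 200 changed genes. Genes passing in a comparison are given in every array, and lists by counts and by their 3 largest changes; other list genes named by role were chosen after their values were seen. Members and lists were chosen with earlier results of these data known. Alternatives covered the pseudocount (1 or 64), the low-signal filter (none or 60th percentile), normalization, the mean of all a gene's probe sets (untested ones included), the trend, the arrays fitted, a replicate block and each array left out.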

Additional observations from a re-analysis of the deposited data

How the results depend on the processing

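Of 26 calls in the set, 8 held in each of the 20 alternatives (Hif1a, Hk2 and Ndrg1 against vehicle after both compounds, and Slc2a3 and Pdk1 after BAC) and 18 ended in at least 1. Of 64 comparisons without a call, 5 passed in at least 1. For DNFB against vehicle, 11 genes of the set passed, against 5 with arrays centred on the median of all probe sets, 7 with the mean of probe sets and 5 without the intensity trend; leaving out 1 array gave 7 to 11, with 7 without DNFB replicate 3 and without vehicle replicate 3. For BAC against vehicle 9 passed, and leaving out 1 array gave 6 to 9. For DNFB against BAC 6 passed, against 3 with median centring, 1 with the mean of probe sets and 0 in limma without the trend, where 10 had an unadjusted p under 0.05; leaving out 1 array gave 2 to 5. The test of any difference gave 14, and 8 under each of those 3 settings. Centring on the median of the tested genes, chosen after seeing the data, gave 11, 9, 6 and 16. With the replicate number as a block (replicate block) the counts were 10, 8, 5 and 12. Deviations from the group means correlated at -0.122 to 0.153 between same-numbered arrays of different groups. Between differently numbered arrays they correlated at -0.163 to 0.119. Such weak correlations cannot settle whether the numbers pair the arrays, and the labels do not say. The mean of probe sets turned Slc16a1 in DNFB against BAC to 0.038 (adjusted p = 0.947) and Angptl4 in BAC against vehicle to -0.0043 (adjusted p = 0.993). Over all genes, 955 were higher and 1000 lower for DNFB against vehicle, but 601 and 601 without the trend, 635 and 641 without vehicle replicate 1, and 621 and 628 without vehicle replicate 3. For BAC against vehicle the 930 and 1079 became 653 and 572 without vehicle replicate 1. For DNFB against BAC the 444 and 517 became 137 and 265 without the trend, 229 and 379 without DNFB replicate 2, 178 and 393 without DNFB replicate 3, and 210 and 303 without BAC replicate 2. Higher calls made up 46.3% for BAC against vehicle and 33.97% with median centring, which moved the median of all genes to -0.118 there and 0.102 for DNFB against BAC. Centring on the tested genes gave 60.2% higher for DNFB against vehicle, against 48.8%, and 60.8% for BAC against vehicle. Without the trend the share for DNFB against BAC was 34.1%, against 46.2%. The cause of these shifts was not tested.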
